A study of Ovis aries with 6 samples.

Results

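Wnt signalling was followed here through 10 genes of its receiving end, out of 18865 genes in the count table: the ligand WNT5A, the Frizzled receptors FZD1, FZD2, FZD4, FZD6, FZD7 and FZD8, the co-receptors LRP5 and LRP6, and the WNT5A receptor ROR2. The genes were chosen by symbol as members of the pathway, with earlier results of these data known. All 10 were found in the table, and all 10 passed the filter on low counts. The samples were mitral valve endothelial cells (VECs) of sheep (Ovis aries), the cells that cover the mitral leaflets. Per the series' design text they were kept for 24 h with post-MI plasma, drawn from sheep after an infarction of the heart muscle (3 libraries), or with plasma of naive sheep (3 libraries). All libraries thus had sheep plasma, and no library without plasma was analysed here. The series' title concerns endothelial-to-mesenchymal transition (EndMT), the acquisition of mesenchymal features by endothelium, and the Wnt inhibitor sFRP3. No sFRP3-treated cells were analysed here. Whether replicate libraries had separate cultures, cell donors or plasma donors is not in the labels, so p-values reflect the spread among the 6 libraries and that spread may be technical.

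A Wnt ligand binds the cysteine-rich outer domain of a Frizzled receptor. With LRP5 or LRP6 in the complex, the signal protects beta-catenin from breakdown, which is the canonical branch. With ROR2 or related receptors, ligands such as WNT5A act mainly on cell polarity, the cytoskeleton and calcium, the non-canonical branches. In the developing heart, Wnt signals take part in valve formation, where endothelial cells give rise to the mesenchyme of the cushions. FZD4 with LRP5 also serves as the receptor of norrin, a ligand outside the Wnt family that is needed for retinal vessels.

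Total counts were 14858472 to 18747848 in the post-MI and 17446474 to 20672794 in the naive libraries. Levels are given as CPM, counts per 1000000 counts of the library after scaling by the trimmed mean of M values (TMM). The lowest count of any of the 10 genes in any library was 30, for ROR2, above a detection floor of 3 counts per library. Endothelial markers were present throughout: PECAM1 was at 968 to 1407 CPM in the post-MI and 889 to 1289 CPM in the naive libraries. Collagen genes listed as markers of fibroblasts and valve interstitial cells were also abundant, and COL1A1 was at 6631 to 8733 CPM in the post-MI and 3172 to 9781 CPM in the naive libraries. Naive replicate 1 stood apart. The summed level of the smooth muscle and pericyte markers, of which 5 of 7 were detected, was 4516 to 6195 CPM in the post-MI libraries, 925 CPM in naive replicate 1 and 2610 and 5020 CPM in the other naive libraries. DES has no row in the table, and RGS5 had 0 counts in every library. This sum is mostly ACTA2, at 3816 to 5330 CPM in the post-MI libraries, 643 CPM in naive replicate 1 and 2093 and 4268 CPM in the other naive libraries. MYH11, TAGLN and PDGFRB were also lowest in naive replicate 1. CNN1 was lowest in naive replicate 3, at 8.46 CPM, and at 19.4 CPM in naive replicate 1. The 7 fibroblast markers, all detected, summed to 13403 to 18072 CPM in the post-MI libraries, 7924 CPM in naive replicate 1 and 16614 and 19671 CPM in the other naive libraries. These sums are mostly COL1A1, COL1A2 and COL3A1, which with DCN were lowest in naive replicate 1, while LUM and DPT were lowest in post-MI replicate 1. PDGFRA of the same list went the other way, at 24.7 to 32.0 CPM in the post-MI libraries, 58.6 CPM in naive replicate 1 and 27.2 and 28.1 CPM in the other naive libraries. The 7 endothelial markers summed to 2524 to 3486 CPM in the post-MI and 2333 to 3012 CPM in the naive libraries. This sum is mostly PECAM1, CDH5 and TIE1, and other markers of the list went apart. TEK and KDR were highest in naive replicate 1, at 128 and 82.8 CPM, and ERG was lowest there, at 57.9 CPM. VWF was at 15.4 to 49.8 CPM in the post-MI and 6.58 to 17.8 CPM in the naive libraries. The 5 leukocyte markers, all detected, summed to 34.1 to 40.7 CPM in the post-MI and 35.4 to 54.7 CPM in the naive libraries, of which CD14 made up 22.6 to 32.4 CPM in the post-MI and 25.9 to 41.4 CPM in the naive libraries. CD68 was at 6.87 to 10.5 CPM in the post-MI and 8.45 to 13.0 CPM in the naive libraries. PTPRC, the leukocyte antigen CD45, was at 0.643 to 1.33 CPM in the post-MI and 0.141 to 0.347 CPM in the naive libraries. In such bulk samples, a smaller share of cells of a type and less RNA per cell cannot be told apart.

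The comparison of the plasmas gave no call among the 10 genes. In edgeR's quasi-likelihood test, with p-values adjusted after Benjamini and Hochberg and a threshold of 0.05, 0 of the 10 were called higher, where 0% of the 14326 genes tested were, and 0 were called lower, again against 0%. The smallest adjusted p among them was 0.570, for WNT5A. At an unadjusted p under 0.05 edgeR also gave 0 of the 10, against 8.68% of all genes tested. DESeq2, which called 152 genes higher and 66 lower in the whole table, called 0 of the 10. Limma-voom called 0 genes higher and 0 lower in the whole table, and thus 0 of the 10 as well. Its unadjusted p was 0.0429 for WNT5A and 0.0323 for FZD7, with an adjusted p of 0.599 and 0.590. The share of all genes tested with an unadjusted p under 0.05 in limma-voom was not determined. These p-values thus cannot be called particular to the 10 genes. The log2 fold change, post-MI minus naive, was above 0 for 9 of the 10, where 47.9% of genes tested were above 0. Its median was 0.46 over the 10 genes and -0.01 over all genes tested. The 10 genes were chosen with earlier results of these data known, so these values are no separate support for a shift of the pathway. The groups were fully separated in CPM for 1 gene, LRP6, which was higher with post-MI plasma, where 8.32% of genes tested did not overlap in that direction. No member was lower without overlap, against 7.82% of genes tested.

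**Figure D1:**
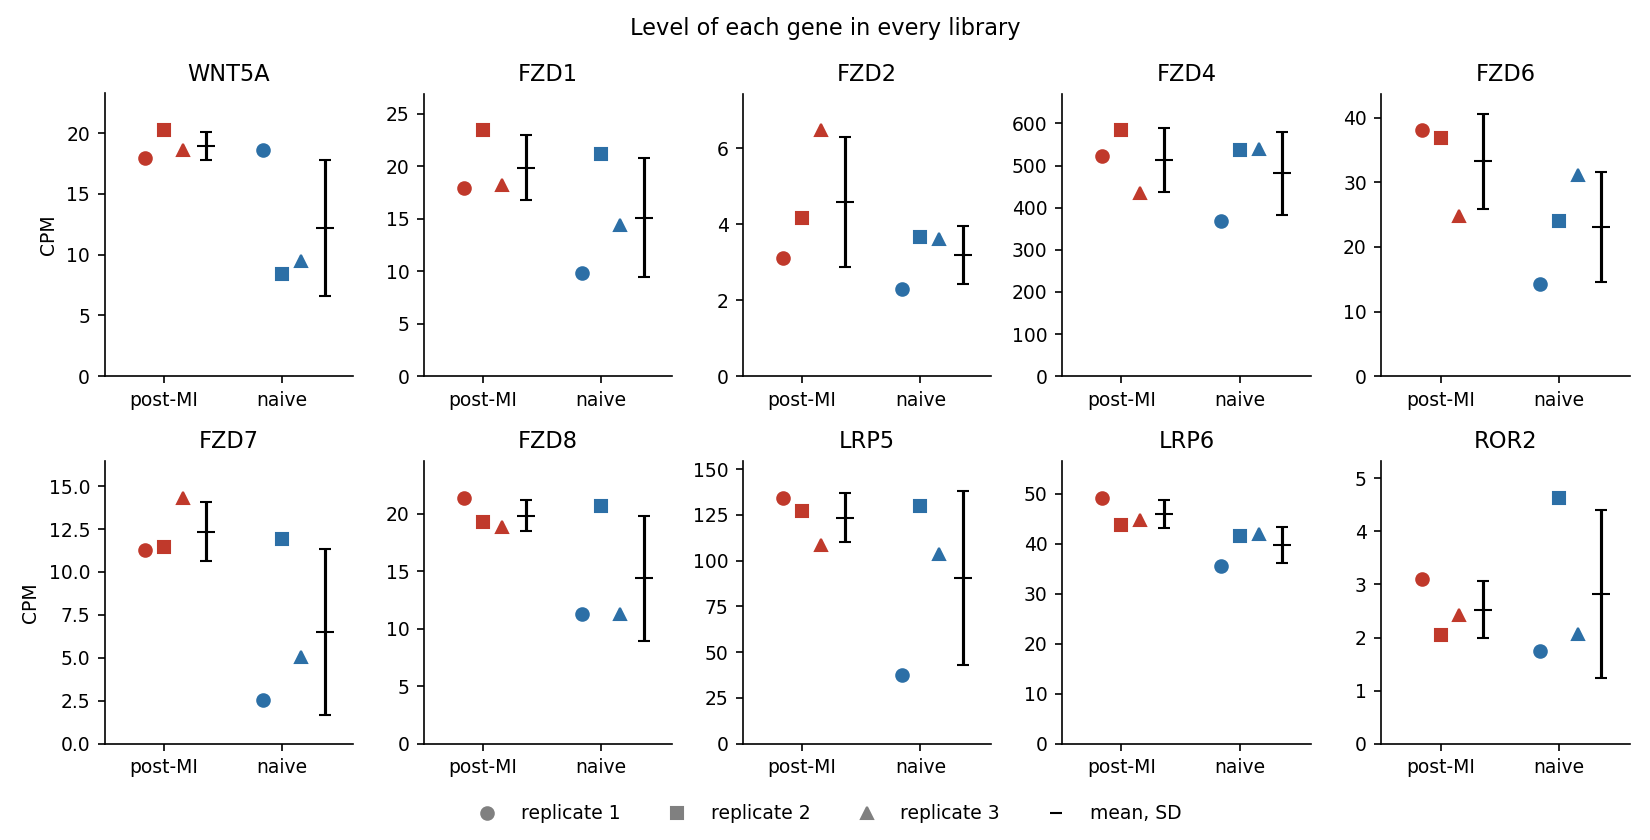
Each panel shows the CPM of 1 gene in the 3 post-MI (red) and 3 naive (blue) libraries, with the mean and SD of the group in black and the replicate number as the symbol. Naive replicate 1, the blue circle, was the lowest library for every gene except WNT5A, and LRP6 alone had groups that did not overlap.

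WNT5A is the prototype of the non-canonical Wnt ligands. Its level was 18.0, 20.2 and 18.6 CPM in post-MI replicates 1, 2 and 3, and 18.6, 8.40 and 9.49 CPM in naive replicates 1, 2 and 3. The post-MI libraries lay close together, and naive replicate 1 lay among them while the other naive libraries were lower. The post-MI mean was 18.9 ± 1.17 CPM and the naive mean 12.2 ± 5.61 CPM (SD, n = 3 each). Between the groups the log2 fold change was 0.64 ± 0.31 (SE, edgeR adjusted p = 0.570), with a 95% interval of -0.09 to 1.36. Without naive replicate 1 the log2 fold change was 1.09 ± 0.16 (SE, edgeR adjusted p = 0.141), with an interval of 0.70 to 1.47. That library was the only naive library within the post-MI range, so leaving it out had to separate the groups. The interval follows from the same choice and is no separate support for a difference. Without naive replicate 2 the log2 fold change was 0.43 ± 0.30 (SE). WNT5A varied by 6.17% of its mean between post-MI libraries (coefficient of variation, CV), close to the 5.61% that counting alone would give, and by 46.1% between naive libraries. A RefSeq annotation of the assembly ARS-UI_Ramb_v3.0 places 1 long non-coding RNA, LOC105603510, over WNT5A. The strand setting of the counting is not given in the sources used here, so reads of that RNA may be included in the WNT5A row.

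ROR2 is a receptor with a tyrosine kinase-like domain that binds WNT5A. It was at 3.11, 2.05 and 2.42 CPM in post-MI replicates 1, 2 and 3, and at 1.75, 4.63 and 2.07 CPM in naive replicates 1, 2 and 3. The groups overlapped, with the highest and the lowest of the 6 libraries both in the naive group. Its log2 fold change was -0.15 ± 0.43 (SE, edgeR adjusted p = 0.928), the only negative value of the 10, with a 95% interval of -1.15 to 0.86. Without naive replicate 2, its highest library, the log2 fold change was 0.41. ROR2 rested on 30 to 80 counts per library, where counting alone gives a CV of 15.2% in the post-MI and 13.7% in the naive group, and the measured CVs were 21.3% and 56.1%.

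FZD4, the norrin receptor and a Wnt receptor of vascular endothelium, was at 522, 583 and 434 CPM in post-MI replicates 1, 2 and 3. In naive replicates 1, 2 and 3 it was at 368, 537 and 540 CPM. The groups overlapped, and naive replicate 1 was the lowest library. The log2 fold change was 0.09 ± 0.20 (SE, edgeR adjusted p = 0.903), with a 95% interval of -0.39 to 0.57. Leaving out naive replicate 1 gave -0.06, and leaving out post-MI replicate 2 gave -0.01. Of the 6 Frizzled genes FZD4 had the smallest spread, its highest library being 1.59 times its lowest.

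FZD7, which together with FZD1 and FZD2 forms a subgroup of closely related Frizzleds, had the largest log2 fold change of the 10. It was at 11.3, 11.5 and 14.3 CPM in post-MI replicates 1, 2 and 3, and at 2.55, 11.9 and 5.03 CPM in naive replicates 1, 2 and 3. Naive replicate 2 lay within the post-MI range, and the other naive libraries lay below it. Its log2 fold change was 0.93 ± 0.50 (SE, edgeR adjusted p = 0.595), with a 95% interval of -0.26 to 2.12. It was 0.56 ± 0.35 without naive replicate 1 and 1.70 ± 0.35 without naive replicate 2 (SE; edgeR adjusted p = 0.707 and 0.320). The CV of FZD7 was 13.8% in the post-MI and 74.7% in the naive group, and counting alone gives 6.92% and 9.08%.

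FZD8, a receptor used widely to study how Wnt ligands bind, showed a like arrangement. It was at 21.4, 19.3 and 18.9 CPM in post-MI replicates 1, 2 and 3, and at 11.3, 20.7 and 11.3 CPM in naive replicates 1, 2 and 3. Again naive replicate 2 lay among the post-MI libraries and the other naive libraries below. For FZD8 the log2 fold change was 0.46 ± 0.26 (SE; adjusted p = 0.604 in edgeR), or 0.82 ± 0.17 with naive replicate 2 left out (SE; adjusted p = 0.320 in edgeR). FZD1 was at 18.0, 23.4 and 18.2 CPM with post-MI plasma and at 9.86, 21.1 and 14.4 CPM with naive plasma, replicates 1 to 3 in order. Its groups overlapped through naive replicate 2, and its log2 fold change was 0.39 ± 0.28 (SE, edgeR adjusted p = 0.665), or 0.17 without naive replicate 1 and 0.71 without naive replicate 2.

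FZD6, a Frizzled known in mice for orienting hair follicles and for signals that do not pass through beta-catenin, was at 38.1, 36.9 and 24.8 CPM in post-MI replicates 1, 2 and 3. In naive replicates 1, 2 and 3 it was at 14.2, 24.0 and 31.1 CPM. Post-MI replicate 3 lay between the naive values, so the groups overlapped. The log2 fold change was 0.52 ± 0.30 (SE, edgeR adjusted p = 0.613), with a 95% interval of -0.19 to 1.24, and 0.28 without naive replicate 1 and 0.80 without naive replicate 3. FZD2 was at 3.11, 4.17 and 6.47 CPM with post-MI plasma and at 2.30, 3.65 and 3.62 CPM with naive plasma. Its highest library was post-MI replicate 3, and without that library its log2 fold change, 0.52 ± 0.35 with all libraries (SE, edgeR adjusted p = 0.646), was 0.19. FZD1, FZD2 and FZD7 are alike in sequence, and how the authors' counting treated reads that match more than 1 gene is not given in the sources used here, so their counts may share reads.

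**Figure D2:**
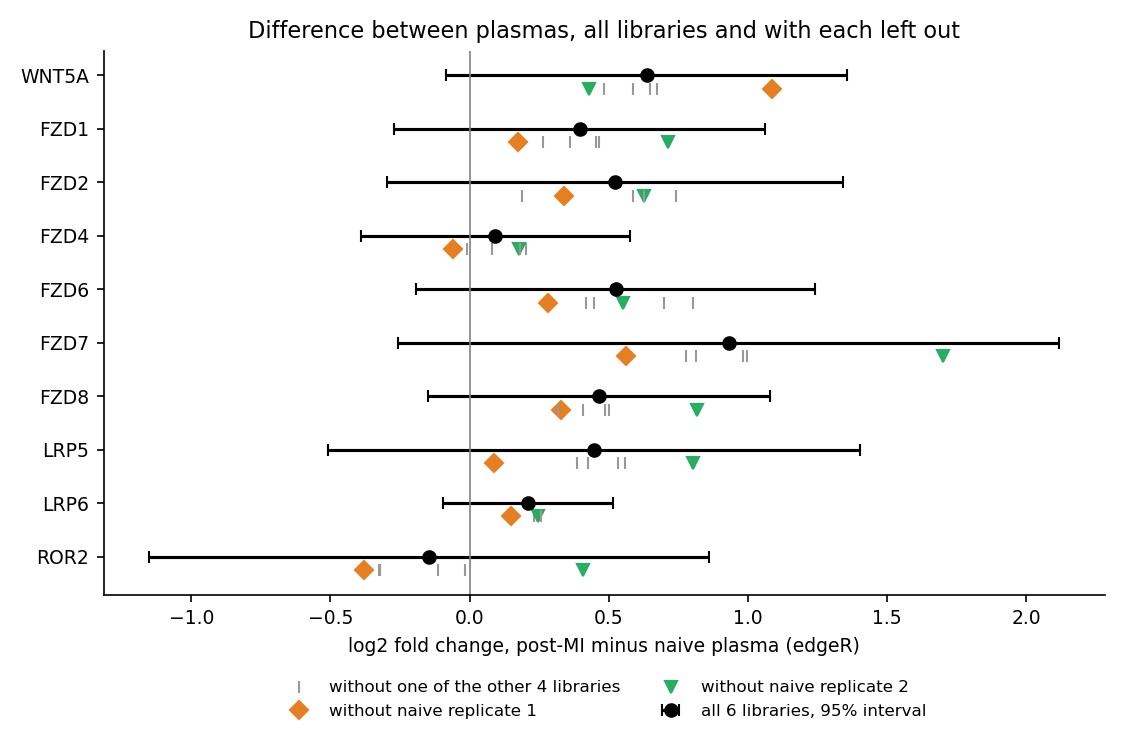
Black points are edgeR log2 fold changes, post-MI minus naive, of the 10 genes with 95% intervals from all 6 libraries, and the marks below each are the values with 1 library left out. All 10 intervals include 0; leaving out naive replicate 1 (diamonds) lowers every value except that of WNT5A, and leaving out naive replicate 2 (triangles) raises FZD7 to 1.70.

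Within the 6 Frizzled genes, the mix of counts was set side by side between the plasmas as a description. FZD4 made up 85.1%, 86.0% and 84.0% of the counts of these 6 genes in post-MI replicates 1, 2 and 3, and 90.2%, 86.9% and 89.2% in naive replicates 1, 2 and 3. The groups did not overlap, by a margin of under 1 percentage point between post-MI replicate 2 and naive replicate 2. The exact 95% binomial intervals of those 2 libraries, 85.3% to 86.6% and 86.2% to 87.5%, did overlap, and such intervals cover counting error only. The mean share was 85.0 ± 0.990% with post-MI and 88.7 ± 1.69% with naive plasma (SD, n = 3 each), a difference of -3.72 percentage points. Leaving out single libraries moved that difference between -4.66 (without naive replicate 2) and -3.01 (without naive replicate 1). FZD6 had 5.48 ± 0.701% with post-MI and 4.17 ± 0.867% with naive plasma, and FZD7 had 2.10 ± 0.588% and 1.13 ± 0.700% (SD, n = 3 each). FZD8 had 3.33 ± 0.430% and 2.65 ± 0.744%, FZD1 3.30 ± 0.331% and 2.74 ± 0.588%, and FZD2 0.791 ± 0.403% and 0.584 ± 0.0176%, with post-MI and naive plasma in that order (SD, n = 3 each). All 5 of these shares overlapped between the groups. A share within a library does not depend on how libraries are scaled. It does depend on transcript length, which was not used here, so shares of different Frizzleds are not levels and are set against each other only between libraries. No test was applied to these shares. How often a share of this kind does not overlap between the groups for other genes was not determined, so the FZD4 share cannot be called a difference between the plasmas.

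LRP5 and LRP6 are single-pass co-receptors whose inner tails bind axin when a Wnt ligand joins them to a Frizzled. LRP5 was at 134, 127 and 108 CPM in post-MI replicates 1, 2 and 3, and at 37.6, 130 and 104 CPM in naive replicates 1, 2 and 3. Naive replicate 1 lay far below the other 5 libraries, and naive replicate 3 just below the post-MI range. The log2 fold change was 0.45 ± 0.41 (SE, edgeR adjusted p = 0.734), with a 95% interval of -0.51 to 1.40, and 0.09 ± 0.16 without naive replicate 1 (SE, edgeR adjusted p = 0.903). LRP6 was at 49.2, 43.9 and 44.9 CPM in post-MI replicates 1, 2 and 3, and at 35.6, 41.5 and 42.1 CPM in naive replicates 1, 2 and 3. Every post-MI library lay above every naive library, though post-MI replicate 2 and naive replicate 3 differed by under 2 CPM, and with plain library totals in place of TMM scaling the groups overlapped. For LRP6 the log2 fold change was 0.21 ± 0.13 (SE, edgeR adjusted p = 0.628), with a 95% interval of -0.09 to 0.52. LRP6 had the narrowest spread of the 10, its highest library being 1.38 times its lowest. The libraries held 2.73, 2.90 and 2.42 LRP5 counts per LRP6 count in post-MI replicates 1, 2 and 3, and 1.06, 3.13 and 2.47 in naive replicates 1, 2 and 3. Apart from naive replicate 1 this ratio overlapped between the groups, and the difference of the means was 0.46 with all libraries and -0.12 without naive replicate 1.

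**Figure D3:**
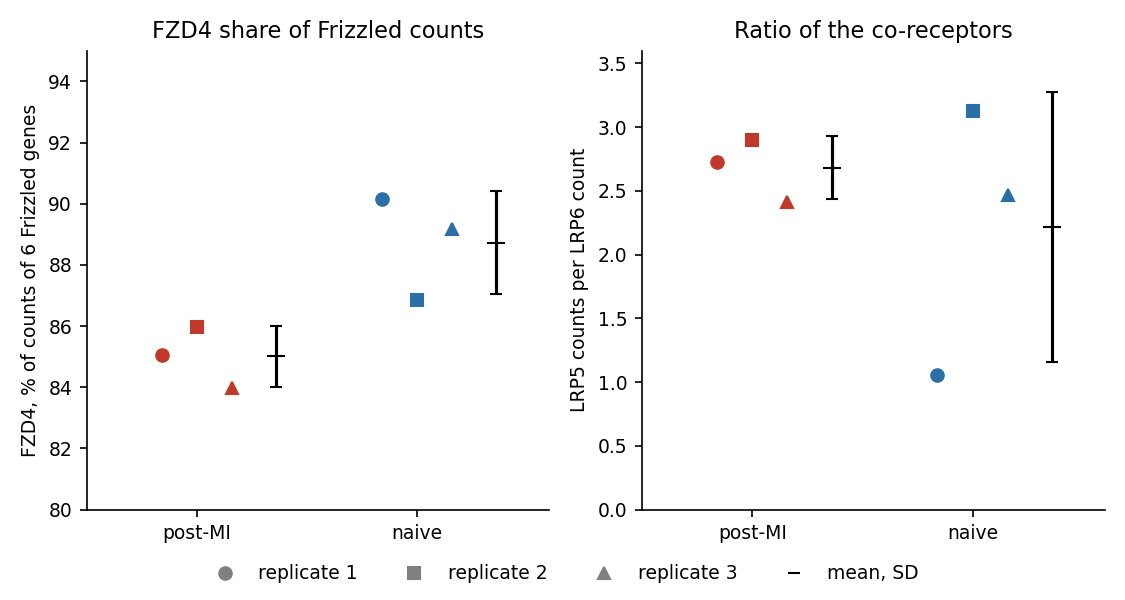
The left panel gives FZD4 counts as a percentage of the counts of the 6 Frizzled genes in each library, on an axis that starts at 80%, and the right panel gives LRP5 counts per LRP6 count; black marks are group means with SD. The FZD4 share is 84.0% to 86.0% with post-MI and 86.9% to 90.2% with naive plasma, and the LRP5 to LRP6 ratio is 1.06 in naive replicate 1 and 2.42 to 3.13 in the other libraries.

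The naive libraries had a larger CV than the post-MI libraries for 9 of the 10 genes, FZD2 being the exception (37.5% in the post-MI and 24.1% in the naive libraries). The share of all genes tested with a larger naive CV was not determined, so this count cannot be called particular to the 10 genes. Naive replicate 1 was the lowest of the 6 libraries for 9 of the 10 genes, where it was the lowest for 29.2% of genes tested, and the highest for 0, against 28.8%. For WNT5A it held the second place, after post-MI replicate 2. Against the mean of the other naive libraries, on the log2 CPM scale, naive replicate 1 was lower by more than for most genes at LRP5 (-1.62, percentile 3.43 of genes tested) and FZD7 (-1.56, percentile 3.73). FZD6 stood at -0.94, FZD1 at -0.82, ROR2 at -0.79, FZD2 at -0.63, FZD4 at -0.55, FZD8 at -0.44 and LRP6 at -0.23. WNT5A stood on the other side at 1.05 (percentile 95.9). The low summed level of smooth muscle markers, mostly ACTA2, and the low collagen genes of naive replicate 1, given above, moved with these values. PDGFRA was highest in that library, and CNN1 was lowest in naive replicate 3. Other cell types and endothelial cells with mesenchymal features cannot be told apart here as the source of these markers. The part of either in the values of the 10 genes was not tested.

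**Figure D4:**
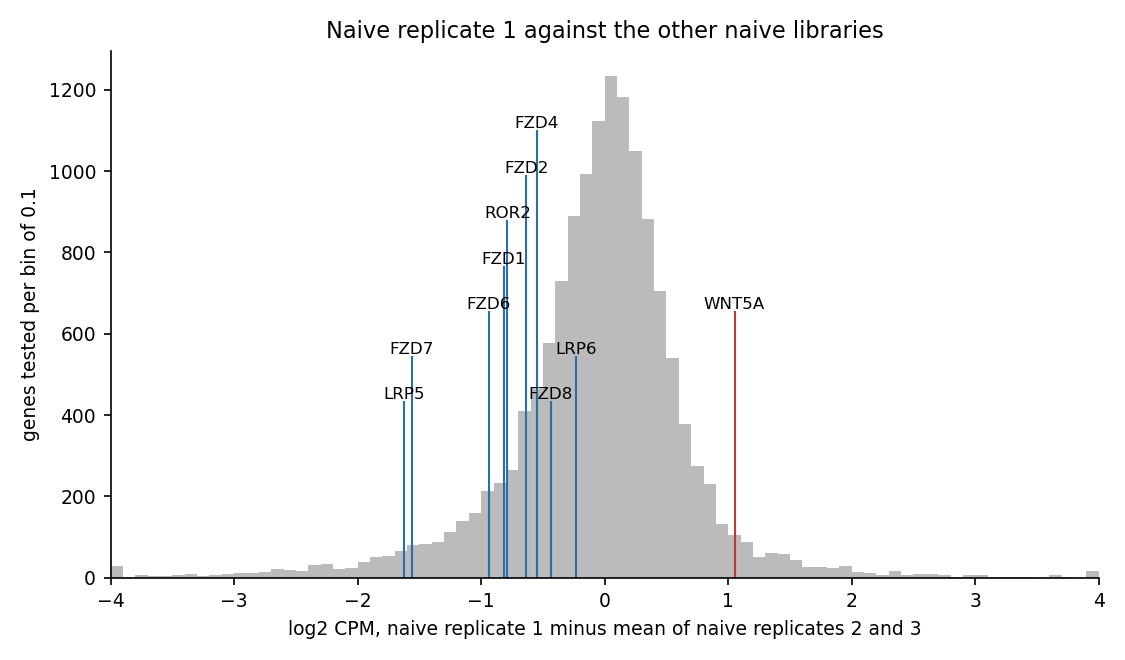
Grey bars count the genes tested by their log2 CPM in naive replicate 1 minus the mean of naive replicates 2 and 3, with values beyond 4 in either direction placed in the end bins. Lines mark the 10 genes: 9 lie below 0, from -1.62 for LRP5 to -0.23 for LRP6, and WNT5A lies at 1.05.

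Which of the 10 genes separated the plasmas differed with the naive libraries kept. Without naive replicate 1, WNT5A and LRP6 did not overlap between the groups and were higher with post-MI plasma, 2 of 10 against 12% of genes tested in that fit. There WNT5A was the only member with an unadjusted p under 0.05 in edgeR (1 of 10 against 8.1% of genes tested), and the median log2 fold change over the 10 genes was 0.23. In that fit 8 of 10 log2 fold changes were above 0, against 50.6% of genes tested. Without naive replicate 2, FZD1, FZD7, FZD8, LRP5 and LRP6 did not overlap, 5 of 10 against 14.9% of genes tested. In that fit FZD1, FZD7 and FZD8 had an unadjusted p under 0.05 in edgeR (3 of 10 against 11.3% of genes tested), and all 10 log2 fold changes were above 0, where 48.6% of genes tested were. Without naive replicate 3, FZD6 and LRP6 did not overlap (2 of 10 against 14.1%) and FZD6 had an unadjusted p under 0.05 in edgeR (1 of 10 against 10.2% of genes tested). There 9 of 10 log2 fold changes were above 0, against 48.8% of genes tested. In all 3 of these fits edgeR called 0 genes of the whole table at an adjusted p under 0.05. These overlaps used the same CPM as with all libraries, so LRP6, already separated there, had to stay separated. For each other gene separated here, the library left out was the only naive library that reached the post-MI range. Its separation thus followed from the choice of library and is no separate support for a difference.

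The pattern of WNT5A over the 6 libraries was 4 high libraries (all post-MI and naive replicate 1) and 2 low ones (naive replicates 2 and 3). Among 13420 genes whose average log2 CPM was 1 or more, the 5 with the highest Pearson correlation with WNT5A on log2 CPM were SPC25 (r = 0.995), LOC101117215 (0.986), FKBP5 (0.983), RFC3 (0.983) and LOC114116387 (0.982). SPC25 is a kinetochore protein, RFC3 a subunit of the clamp loader of DNA replication, and FKBP5 a chaperone partner induced by glucocorticoids. These values describe 6 libraries that share their scaling, and r was above 0.9 for 43 genes. Without the 2 low libraries, over the 4 high ones, r was 0.999 for SPC25 and 0.980 for RFC3. It was 0.266 for LOC101117215, -0.242 for FKBP5 and -0.168 for LOC114116387. These 4 libraries were among those that picked the 5 genes, so these values are no separate support for a shared pattern. SPC25 was at 4.56, 5.53 and 4.79 CPM in post-MI replicates 1, 2 and 3 and at 4.85, 1.85 and 1.88 CPM in naive replicates 1, 2 and 3. The SPC25 difference of 0.79 ± 0.41 on the log2 scale (SE) did not pass in edgeR either (adjusted p = 0.586).

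The rest of the pathway was read from 8 lists with 79 genes in the table, of which 49 were tested. In edgeR 0 of the 49 passed in either direction over all genes, 1 higher and 2 lower had an unadjusted p under 0.05 (against 4.61% and 4.08% of genes tested), and 1 higher and 3 lower did not overlap between the groups (against 8.32% and 7.82% of genes tested). Their median log2 fold change was 0.01.

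WNT5A stood beside few other Wnt ligands. Of 17 other ligand genes in the table, 7 had 0 counts in all libraries and 3 were tested: WNT2B with a log2 fold change of 0.85 ± 0.63, WNT5B, the closest relative of WNT5A, with -0.61 ± 0.48, and WNT11 with -0.24 ± 0.77 (SE). Of the proteins that ligand secretion needs, the carrier WLS gave -0.22 ± 0.15 and the acyltransferase PORCN 0.07 ± 0.27 (SE). Of 8 tested receptors and cofactors beyond the 10 genes, 5 were above and 3 below 0 in log2 fold change. Those below 0 were RYK, FZD3 with -0.34 ± 0.28 and ROR1, the relative of ROR2, with -0.28 ± 0.44 (SE). FZD3 and ROR1 were named after their values were seen. ADGRA2, known in mice as a co-activator of WNT7 signals in brain endothelium, gave 0.71 ± 0.31, the glypican GPC4 0.68 ± 0.38 and FZD9 0.46 ± 0.37 (SE). Without naive replicate 1 GPC4 gave 0.34 and FZD9 0.21. RYK, another receptor of WNT5A that was named after its values were seen, was the 1 gene of this list that did not overlap. It was at 98.8 to 103 CPM in the post-MI and 108 to 111 CPM in the naive libraries, and its log2 fold change was -0.13 ± 0.12 (SE, edgeR adjusted p = 0.730).

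Among R-spondins and the proteins that set how long Frizzleds stay on the surface, 3 were tested, with a median log2 fold change of 0.19, and of 0.010 without naive replicate 1. ZNRF3, a ligase that removes Frizzleds, gave 0.41 ± 0.22, the R-spondin receptor LGR4 -0.21 ± 0.20 and the ligand RSPO3 0.19 ± 0.31 (SE). Of 5 tested secreted inhibitors SFRP1, which binds Wnt ligands outside the cell, had a log2 fold change of 1.61 ± 0.57 (SE). Its p in edgeR was 0.0245 unadjusted and 0.558 adjusted. SFRP1 overlapped between the groups, at 114, 104 and 38.7 CPM in post-MI and 13.3, 49.4 and 21.3 CPM in naive replicates 1, 2 and 3. NOTUM and WIF1 gave -0.82 ± 1.11 and 0.53 ± 0.78 (SE).

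Of 16 tested genes of canonical transduction 8 were above and 8 below 0 in log2 fold change. TCF7L2, a DNA-binding partner of beta-catenin, was at 29.2, 27.2 and 26.0 CPM in post-MI replicates 1, 2 and 3 and at 47.1, 39.6 and 31.3 CPM in naive replicates 1, 2 and 3. The groups did not overlap, and the difference was -0.52 ± 0.17 on the log2 scale (SE; adjusted p = 0.551 in edgeR). APC2 and GSK3B, of the complex that marks beta-catenin for breakdown, gave -0.35 ± 0.20 and -0.23 ± 0.15 (SE). Canonical feedback and target genes were near or below detection for the most part, and 3 of 7 in the table were tested. AXIN2, the most used readout of the branch and named after its values were seen, had 0 counts in each post-MI library, which allows up to 0.161, 0.205 and 0.173 CPM in replicates 1, 2 and 3, and 3, 1 and 3 counts in naive replicates 1, 2 and 3. APCDD1, a membrane inhibitor that is also a Wnt target, was at 28.7 to 32.3 CPM in the post-MI libraries, at 3.55 CPM in naive replicate 1 and at 23.1 CPM or more in the other naive libraries (log2 fold change 0.76 ± 0.61, SE, edgeR adjusted p = 0.702). CCND1 and MYC gave -0.39 ± 0.37 and -0.01 ± 0.19 (SE). CCND1 stood at -0.92 without post-MI replicate 3 (unadjusted p = 0.00895, adjusted p = 0.373 in edgeR) and at -0.12 without post-MI replicate 1. Without post-MI replicate 3, 9.74% of genes tested had an unadjusted p under 0.05 in edgeR. That library, at 565 CPM, was the only post-MI library not below the naive range of 371 to 523 CPM. Leaving it out thus had to separate the groups and is no separate support for a difference.

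Of genes that act in planar cell polarity, 3 are given singly. DAAM2, a formin that binds dishevelled, was at 5.20, 5.46 and 5.08 CPM in post-MI and 1.30, 3.65 and 3.43 CPM in naive replicates 1, 2 and 3 (log2 fold change 0.91 ± 0.39, SE, edgeR adjusted p = 0.566). The polarity protein VANGL1 gave 0.38 ± 0.16 and PRICKLE3 -0.46 ± 0.19 (SE). The calcium branch held 9 tested genes, of which 5 were above and 4 below 0 in log2 fold change. In it PPP3CA, the catalytic subunit of calcineurin, was at 49.0, 53.6 and 63.7 CPM in post-MI and 70.3, 78.0 and 86.6 CPM in naive replicates 1, 2 and 3. These groups did not overlap either, at -0.50 ± 0.15 in log2 fold change (SE; adjusted p = 0.526 in edgeR), and the calcineurin-dependent factors NFATC4 and NFATC2 gave 0.34 ± 0.25 and -0.69 ± 0.64 (SE).

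**Figure D5:**
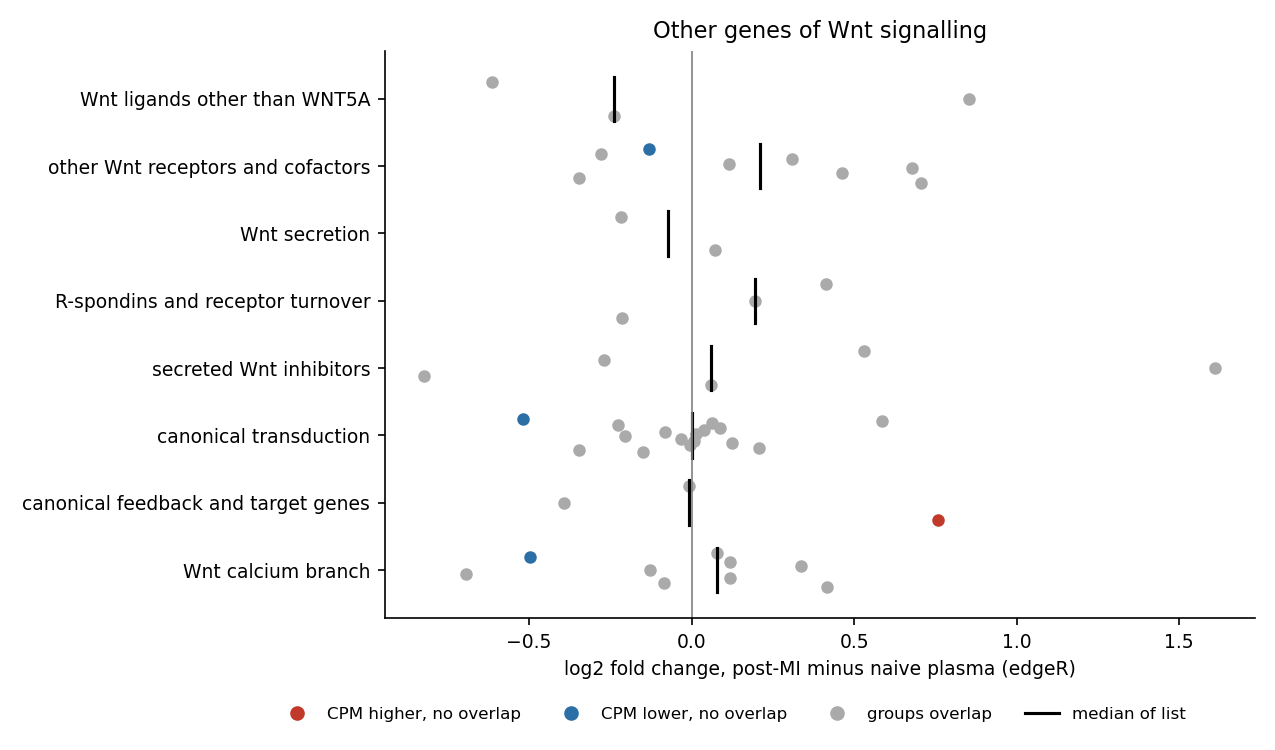
Points are edgeR log2 fold changes, post-MI minus naive, of the tested genes of each list, coloured where CPM of the groups did not overlap, with the list's median as a bar. Of 49 genes 1 was higher and 3 were lower without overlap, where 8.32% and 7.82% of all genes tested were, and list medians lie between -0.24 and 0.21.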

How the data were processed

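RNA sequencing of sheep VECs (stranded mRNA libraries, paired ends of 150 bp, per the labels' protocols) was used as deposited. The tools named in the submitters' processing notes are STAR 2.5.2b, SAMtools 1.9, featureCounts 2.0.0 and DESeq2 1.26.0, with the build Oar_v3.1. No source used here gives the annotation or strand setting of the counting. The authors deposited 1 table of raw counts for all libraries, by gene symbol. The files per sample, as deposited by the authors, hold a signal equal to these counts divided by 1 factor per library (100% of non-zero rows within 0.01%) and served only to check the columns.

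Groups and replicate numbers came from the sample titles. In R 4.3.3, genes were kept by edgeR 4.0.16 filterByExpr (minimum count 10, minimum total 15), scaled by TMM and tested by quasi-likelihood with Benjamini-Hochberg adjustment over 14326 genes at 0.05, a procedure tested on simulated data. Precision follows the 14858472 to 20672794 counts per library. Each SE was the size of the log2 fold change divided by the root of its F statistic. Correlations used log2 CPM with a prior count of 2. Alternatives were DESeq2 1.42.0, limma-voom (limma 3.58.1), other scalings and filters, a replicate block and each library left out. The members and lists were chosen with earlier results of these data known. Named genes were the 10 members, up to 3 tested genes with the smallest p per list and the 5 genes most like WNT5A. Some members of a list on cell polarity are not reported here, and no count over that list is given. The reference table was of another build, and its coordinates served only to find genes that overlap the 10 members, without regard to strand.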

Additional observations from a re-analysis of the deposited data

How the results depend on the processing

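Under the 13 alternative settings, edgeR, DESeq2 and limma-voom called 0 of the 10 genes and 0 of the 49 other pathway genes. DESeq2 called 152 genes higher and 66 lower over the whole table. With plain library totals 0 of the 10 genes were higher without overlap, and with single libraries left out this count ran from 1 to 5. Leaving out a library could not lower the count below the 1 found with all libraries, since the same CPM were used. Of 130 log2 fold changes of the 10 genes under alternatives, 126 kept their sign. ROR2 turned to 0.012 under limma-voom and ran from -0.38 to 0.41 with single libraries left out, turning without naive replicate 2. FZD4 ran from -0.059 (without naive replicate 1) to 0.20, and turned also without post-MI replicate 2 (-0.0089).

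Among other named genes, WNT11 turned to 0.31 under limma-voom and 0.20 with the replicate block, and MYC to 0.00099 and 0.0074. With single libraries left out WNT11 ran from -0.72 to 0.83, MYC from -0.099 to 0.18, PORCN from -0.020 to 0.14, LGR4 from -0.37 to 0.010, RSPO3 from -0.018 to 0.54 and NOTUM from -2.28 to 0.061. Others kept their sign but moved by over 1.5 times. Without naive replicate 1 WNT2B gave 0.40, WIF1 0.056, GSK3B -0.093, APCDD1 0.28, DAAM2 0.58, NFATC4 0.17 and NFATC2 -1.15. Without naive replicate 2 ADGRA2 gave 1.11 and APC2 -0.21, without naive replicate 3 WLS gave -0.14, and without post-MI replicate 1 WNT5B gave -0.24. The cause was not tested.

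Deviations from the group means correlated at 0.151, -0.109 and 0.0924 between libraries numbered 1, 2 and 3, so the numbers were not taken as pairs. With the replicate block WNT5A gave a log2 fold change of 0.72 and FZD7 1.18, and edgeR called 0 genes. Depth limits ROR2 most of the 10 genes, at 30 to 80 counts.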
